A study of Mus musculus with 6 samples.

Results

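Sqstm1 encodes p62, a scaffold protein that binds ubiquitin chains and the autophagosome protein LC3 and so carries ubiquitinated cargo into autophagy. p62 also binds Keap1, the adaptor that marks Nrf2 for degradation, and Sqstm1 is itself a known target of the cap'n'collar factors, which bind antioxidant response elements as partners of small Maf proteins. Nrf1, like Nrf2, is a member of that family that is degraded by the proteasome and accumulates when it is blocked. Here the binding of an Nrf1-MafG pair around the Sqstm1 start was read from lists of ChIP-seq summits, a summit being the base of highest enrichment in a called peak.

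The Sqstm1 summits were all those on chromosome 11 between 50004000 and 50045000 of the mouse assembly mm9, a window of 41 kb that holds the gene's start at about 50024300 on the minus strand. There were 6 of them among 11322 summits in 4 lists, and they fell on 2 sites upstream of the gene. The gene and the window were chosen from summit positions already known in these lists, so presence, position, score and rank are given below as a description, with no test.

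All cells were mouse embryonic fibroblasts of genotype MafF-/-::MafG-/-::MafK-/-:T-N1G. All groups thus share the loss of MafF, MafG and MafK and the expression of T-N1G, a tethered pair of Nrf1 and MafG, so the only MafG that the labels give these cells is the tethered one. How T-N1G was introduced, and whether the cells are a single clone, is not given in the labels. Treatment was with vehicle or with the proteasome inhibitor MG132 at 1.0 µM, for 4 h. Each treatment has 2 ChIP libraries made with an anti-MafG antibody, and 2 input libraries have no list analysed here.

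The lists differed widely in length, with 24 and 828 summits in vehicle replicates 1 and 2 and 3894 and 6576 in MG132 replicates 1 and 2. Each summit has a score from the authors' peak caller on a −log10 scale of p or q, which is read here only within its own list, since deeper sequencing raises it. Read depth is unknown, because the lists hold no read counts. Vehicle replicate 1 stands apart by its shortness, and it is also the list with no Sqstm1 summit. The titles number the vehicle, MG132 and input libraries together, and number 1 has the shorter list in both treatments. The labels do not say what a number marks, nor that replicates came from separate cultures.

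The sequence just before the Sqstm1 start is shown because the site nearer to the gene lay close to it. It is the RefSeq sequence of the 250 bases before the annotated start, chr11:50210821-50211070 of GRCm38.p6, minus strand, written 5′ to 3′ along the gene. Capitals mark the GC box core GGGCGG on either strand, a motif bound by Sp1 family factors.

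Sqstm1 promoter: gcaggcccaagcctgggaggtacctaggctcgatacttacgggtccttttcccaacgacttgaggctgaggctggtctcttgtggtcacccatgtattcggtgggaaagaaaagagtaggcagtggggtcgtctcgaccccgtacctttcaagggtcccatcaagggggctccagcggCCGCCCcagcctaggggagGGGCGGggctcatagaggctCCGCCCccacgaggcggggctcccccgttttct

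This build is not that of the summits, and no coordinate was carried from one to the other. The start in mm9 is used here as a value rounded to 100 bp, so whether the nearer summits fall inside the printed stretch or just before it cannot be told. The stretch was rich in G and C (63.2%, against a median of 52.4% over 32851 RefSeq promoter stretches of the same length). It held 3 GC box cores, whose first bases, read along the gene, lie 72, 53 and 33 bases before the annotated start. The first and the last of these are on the strand opposite to the gene. Of all RefSeq promoter windows of 300 bases (250 before the start and 50 after), 35.7% hold at least 1 such core. A TATA box core, TATAAA, begins at the last base printed, 1 base before the annotated start, and 13.6% of windows hold that hexamer. TATA boxes lie upstream of the start they serve. If this hexamer acts as one, the annotated start may not be the main one, which was not tested. Motif distances are from the annotated start, and the summit distances below are from the rounded mm9 value. The GC box and TATA motifs were both searched after the sequence was seen.

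Motifs of the factor under study were searched on both strands of the whole 300-base Sqstm1 window. The antioxidant response element core TGACNNNGC was not found, and 12.4% of all promoter windows hold it. The relaxed core TGANNNNGC, which includes every match of the first, was not found either, against 41.3% of windows. Neither the AP-1-like core TGANTCA (7.81% of windows) nor TGCTGA, an arm of the Maf recognition element (19.5%), was found. These 2 can overlap each other and the relaxed core. The result says only that these letters are not in this window, and the sequence under the summits themselves was not analysed here.

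Both sites lay upstream of Sqstm1. The proximal site, the nearer one, had its summit at 50024586 in MG132 replicate 1, 50024588 in MG132 replicate 2 and 50024591 in vehicle replicate 2. These positions are 286, 288 and 291 bp before the start, and the 3 lists placed this site within 5 bp of one another. The distal site had its summit at 50026426, 50026435 and 50026455 in the same order of lists, which is 2126, 2135 and 2155 bp before the start. The distal summits spread over 29 bp, with the vehicle summit farthest from the gene. The uncertainty of the start shifts all 6 distances by the same amount and leaves the distances between summits as they are. With RefSeq genes ordered by their lower coordinate, Mrnip comes just before Sqstm1, and the lncRNA gene Gm36556 and then Mgat4b come after it. For a minus-strand gene the lower coordinate is the 3′ end, and whether these genes overlap Sqstm1 was not analysed. The position of the sites relative to those genes in mm9 was not analysed here.

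**Figure D1:**
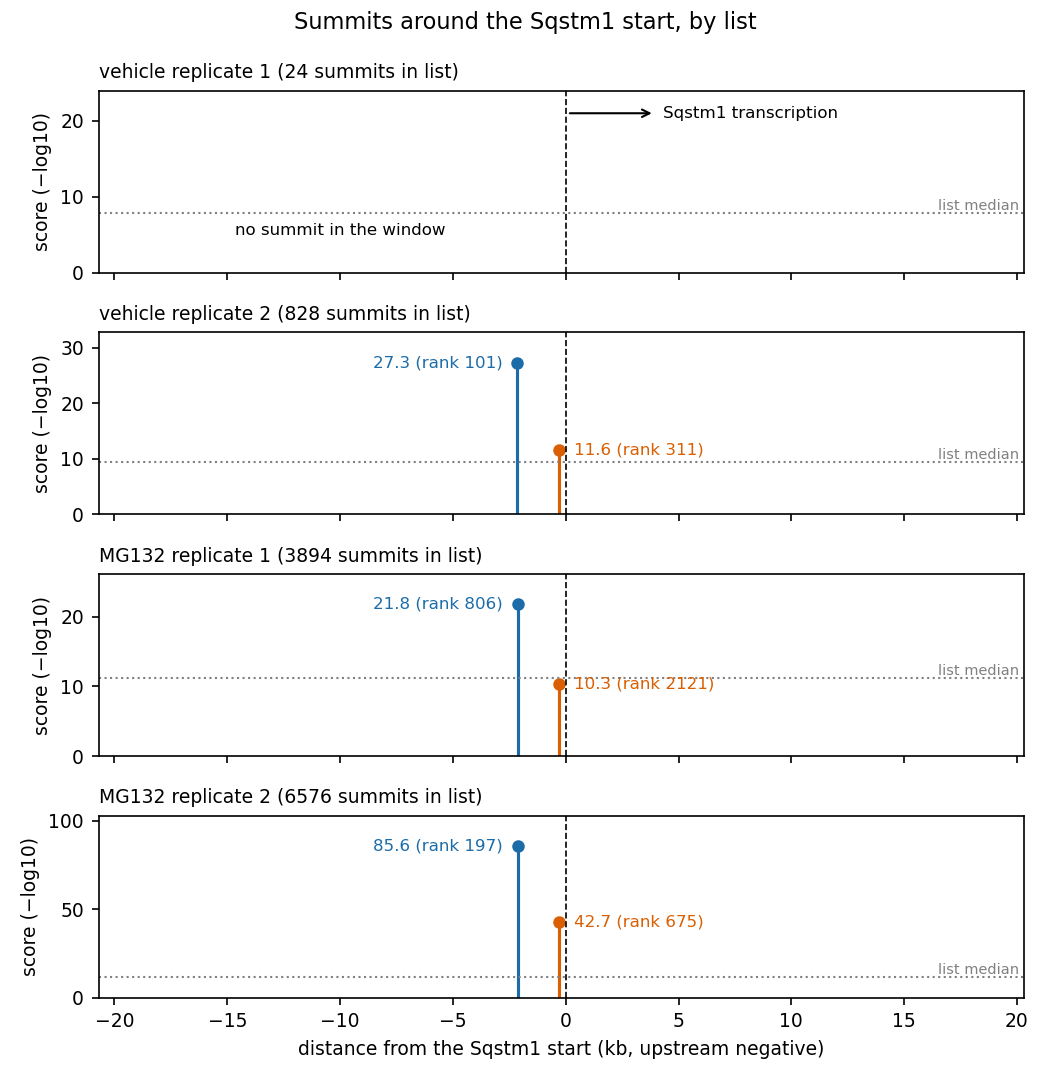
Summits in the 41 kb window around the Sqstm1 start, one panel per list, with the distance from the start in kb on the x axis (upstream negative) and the authors' −log10 score on the y axis, which is scaled separately in each panel. Blue is the distal site, orange the proximal site, the dotted line the median score of that list and the dashed line the start. Both sites are in 3 lists, the distal one is the taller in each, and vehicle replicate 1 has neither.

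The sites were 1840 bp apart in MG132 replicate 1, 1847 bp in MG132 replicate 2 and 1864 bp in vehicle replicate 2. The MG132 mean was 1844 ± 4.95 bp (SD, n = 2), and the single vehicle value lay above both. Each summit belonged to a peak with a name of its own, so the caller reported 2 peaks and not 1 peak with 2 tops.

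Between the MG132 lists the offset of each site was below the median offset, and the proximal one was the smaller. The offset was 2 bp at the proximal and 9 bp at the distal site, against a median of 14 bp over the 3379 sites found in both MG132 lists (pairs of mutually nearest summits no more than 200 bp apart). Of those sites, 10.3% had an offset of 2 bp or less and 36.0% one of 9 bp or less. The distal vehicle summit was 29 bp from that of MG132 replicate 1 and 20 bp from that of MG132 replicate 2. The median offset from vehicle replicate 2 was 16 bp for either MG132 list, and 72.4% and 59.9% of shared sites had offsets no larger than those 2. At the proximal site the same offsets were 5 and 3 bp, and 20.9% and 13.1% of shared sites had offsets no larger.

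The distal summit outscored the proximal one in every list that held them. In MG132 replicate 1 the scores were 21.8 and 10.3, with ranks of 806 and 2121 among 3894. In MG132 replicate 2 they were 85.6 and 42.7, with ranks of 197 and 675 among 6576. In vehicle replicate 2 they were 27.3 and 11.6, with ranks of 101 and 311 among 828. The distal score was thus higher by 11.5, 43.0 and 15.7 units of −log10 in the 3 lists, and the order of the sites was the same in MG132 and in vehicle cells.

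Many scores were tied in these lists, so a rank can stand for a band. In MG132 replicate 1 the proximal score was shared exactly by 123 other summits, and its rank of 2121 is the first of a tie that runs to 2244. The distal score had no tie in that list or in vehicle replicate 2, and 1 in MG132 replicate 2. The proximal score was shared by 13 others in MG132 replicate 2 and by 13 in vehicle replicate 2.

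**Figure D2:**
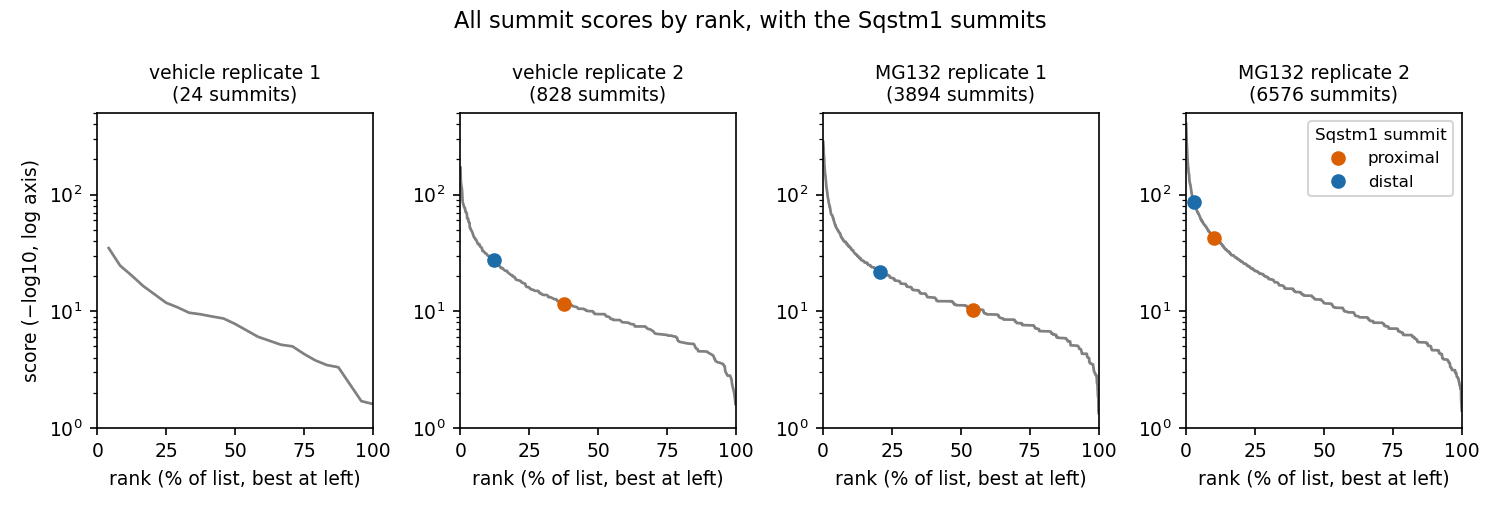
Scores of all summits of each list against rank as a percentage of the list, best at the left, with the score on a log axis; the grey line is the whole list and the dots are the Sqstm1 summits. The distal dot lies left of the proximal dot in all 3 lists that hold them, and in MG132 replicate 1 the proximal dot lies just past the middle of the list.

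The percentile of each site differed widely between the MG132 replicates, and the vehicle value lay between them. The distal site was at percentile 79.3 of MG132 replicate 1, 97.0 of MG132 replicate 2 and 87.9 of vehicle replicate 2, a percentile being the share of the list with the same or a lower score. Its MG132 mean was 88.2 ± 12.5 (SD, n = 2). The proximal site was at percentile 45.6 of MG132 replicate 1, where its score of 10.3 was below the list's median of 11.2. It was at 89.8 of MG132 replicate 2 and 62.6 of vehicle replicate 2. Its MG132 mean was 67.7 ± 31.2 (SD, n = 2). Because percentiles depend on the length of a list, they do not measure a change with MG132.

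The gap between the MG132 replicates was wide at the proximal site. It stood 44.2 percentiles higher in MG132 replicate 2 than in replicate 1, where the median of that difference over the 3379 sites found in both lists was 8.09. A difference of the same sign and at least that size was seen at 388 of those sites (11.5%). The distal difference of 17.7 percentiles was reached by 1204 sites (35.6%). Both shares were lower among the 764 of those sites with a vehicle replicate 2 summit within 200 bp, where the median difference was 4.41. There the proximal difference was reached by 65 sites (8.51%) and the distal one by 179 (23.4%). A site already high in MG132 replicate 1 has little room above it and cannot show a large difference. The median percentile of the 764 sites in that list was 86.8, and 93 of them lay below the list's median. The lower shares thus do not show that the Sqstm1 gaps are unusual among these sites. Depth and enrichment may differ between the 2 lists, and their part in these gaps was not tested.

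**Figure D3:**
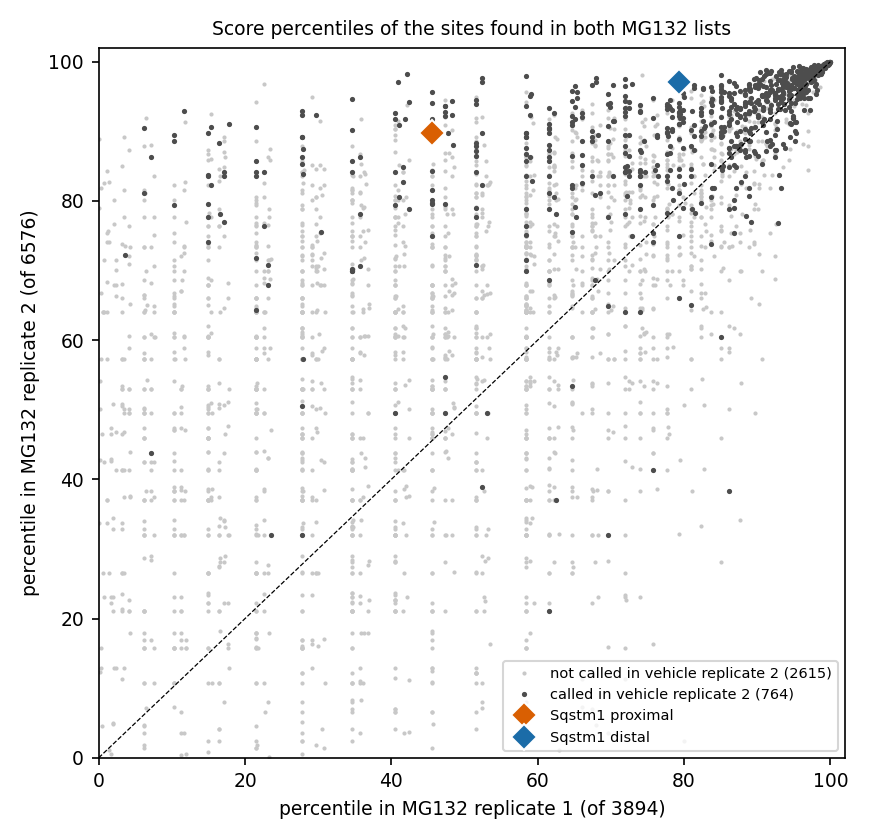
Percentile of each of the 3379 sites found in both MG132 lists, MG132 replicate 1 on the x axis and MG132 replicate 2 on the y axis, dark where vehicle replicate 2 has a summit within 200 bp and light where it has none. Diamonds are the Sqstm1 sites, both above the dashed line of equal percentiles, at 45.6 and 89.8 (proximal) and at 79.3 and 97.0 (distal); vertical bands are tied scores.

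Presence in vehicle cells split by replicate. Both Sqstm1 sites were called in both MG132 lists, where 86.8% of the summits of MG132 replicate 1 and 51.4% of those of replicate 2 have a partner in the other list. Both were also called in vehicle replicate 2, as were 764 of the 3379 sites found in both MG132 lists (22.6%, exact 95% interval 21.2 to 24.1, counting error only). Neither was called in vehicle replicate 1, which holds 23 of those sites (0.681%). The gene was picked with these calls known, so nothing is read from its counts of 2 and 0.

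The absence from vehicle replicate 1 can be set beside what that list holds. Of the 100 summits of vehicle replicate 2 that ranked above the distal site, 20 had a summit of vehicle replicate 1 within 200 bp. Of the 728 summits from the distal site's rank of 101 downward, 2 had one, and from the proximal site's rank of 311 downward none of 518 had. The nearer of the 2 chromosome 11 summits of vehicle replicate 1 was 25.2 Mb from the Sqstm1 start. A list with a threshold does not show whether a site without a summit was unbound.

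Ranks can be compared over one common set of sites, namely the 764 found in both MG132 lists and in vehicle replicate 2. That set depends on a call in vehicle replicate 2, a list that is itself ranked here. Sites found in both MG132 lists but not in that list are left out. Among them the distal site ranked 484 in MG132 replicate 1, 179 in MG132 replicate 2 and 97 in vehicle replicate 2. The proximal site ranked 683, 500 and 292 in the same order. Both sites stood highest in the vehicle list and lowest in MG132 replicate 1. With 1 vehicle list that holds the sites there is no spread for that group, and the difference was not tested.

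**Figure D4:**
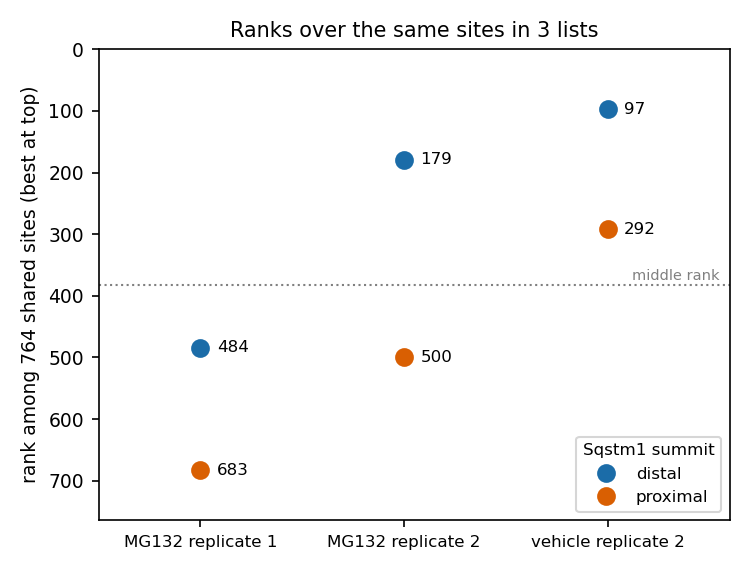
Rank of the Sqstm1 sites (y axis, best at the top) among the 764 sites that both MG132 lists and vehicle replicate 2 share, for each of the 3 lists on the x axis; each dot is 1 list. The distal site goes from 484 to 179 to 97 and the proximal site from 683 to 500 to 292, so both dots are highest in vehicle replicate 2.

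No other summit lay in the window in any list, and the distance to the next ones varied between lists. Over the 3379 sites found in both MG132 lists, the median distance to the nearest other such site was 178 kb. Wide gaps are thus not particular to this pair. In vehicle replicate 2 the next summits were 1086 kb downstream and 1496 kb upstream of the Sqstm1 start. In MG132 replicate 1 they were 1013 kb downstream and 190 kb upstream. MG132 replicate 2 had the closest ones, 27.9 kb downstream at 49996374 (score 10.9, rank 3507) and 115 kb upstream at 50139594 (score 25.5, rank 1390). The first of these lies just outside the window, and its score is below those of both Sqstm1 summits in that list. Within chromosome 11 the distal and proximal sites ranked 44 and 119 of 206 summits in MG132 replicate 1. They ranked 10 and 40 of 426 in MG132 replicate 2, and 8 and 21 of 47 in vehicle replicate 2.

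Most summits had no neighbour as close as these. Summits in neighbouring pairs no more than 2 kb apart were 1.69% of MG132 replicate 1, 3.50% of MG132 replicate 2 and 1.21% of vehicle replicate 2, and 2 of the 24 (8.33%) of vehicle replicate 1. Of the 3379 sites found in both MG132 lists, 40 (1.18%) formed 20 such pairs, and in 3 of those pairs, Sqstm1's among them, vehicle replicate 2 had both members. Vehicle replicate 2 by itself had 5 neighbouring pairs within that distance. The best ranked was on chromosome 16 at 14351080 and 14352900, 1820 bp apart, with ranks of 35 and 53. The others, beside Sqstm1, were on chromosome 8 at 63336561 and 63338524 (ranks 624 and 89), on chromosome 3 at 122959176 and 122959865 (ranks 225 and 167) and on chromosome 7 at 57018257 and 57019496 (ranks 803 and 459). Those 4 pairs were named after their values were seen. In both MG132 lists, both members of the chromosome 16, chromosome 7 and Sqstm1 pairs were found.

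The pair that leads the vehicle lists was spaced more widely and ranked higher. It lies on chromosome 8 at 77613625 and 77607866 in vehicle replicate 2, 5.76 kb apart, with ranks of 1 and 2 there and of 4 and 25 in MG132 replicate 1. Unlike the Sqstm1 pair, it was also called in vehicle replicate 1. As at Sqstm1, the same member of the pair had the higher score in every list that held it.

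The 5 sites whose percentiles were most like those of the distal Sqstm1 site were taken from 741 others called in the same 3 lists and, like it, not in vehicle replicate 1. Likeness was the Euclidean distance over the 3 percentiles, and the positions are those of MG132 replicate 2. The nearest was on chromosome 1 at 58086509 (distance 4.82 percentile points, with percentiles of 83.6, 96.4 and 85.9 in MG132 replicates 1 and 2 and vehicle replicate 2). The next were on chromosome 2 at 132439406 and 131218755 (5.17 and 5.78 points), on chromosome 17 at 6856027 (7.28) and on chromosome 2 at 59455119 (7.44). Their genes are not stated, because no mm9 annotation was used.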

How the data were processed

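The authors deposited a BED list of 1-bp summits for each ChIP library, with a −log10 score (of p or q; which one is not stated) from peak calling. The build mm9 and the tools MACS2 2.1.4, Bowtie2 2.2.9 and bcl2fastq 2.16.0.10 are named in the submitters' processing notes. Not given in the sources used here were the options, the threshold and the handling of duplicates and inputs. Every score is above 1.30, where a q of 0.05 would lie. A longer list can come from greater depth or enrichment as well as from more binding.

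Positions were made 1-based. Groups came from the titles. Summits of different lists were one site when within 200 bp, and a site was counted in a vehicle list when within 200 bp of either MG132 summit. Rank 1 is the best score, ties taking the better rank. The window and approximate gene start are those of the rule that defined the members. Members, lists and measures were chosen with earlier results of these data known. Named sites were every Sqstm1 site, the 5 sites most like the distal one, and the top vehicle replicate 2 summit with its nearest neighbour. Sequences are RefSeq's, GRCm38.p6. Summits under genes of an autophagy list and motifs at summits were planned but need an mm9 reference and were not analysed. The matching and ranking code was tested on simulated data. Software: matplotlib 3.10.9, SciPy 1.17.1, pandas 2.3.3, NumPy 2.4.6, Python 3.11.15.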

Additional observations from a re-analysis of the deposited data

How the results depend on the processing

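Of 65 alternatives, 58 left the value within its limit (for a count 1.5 times, for an MG132 percentile the SD between MG132 lists, otherwise the exact 95% interval). Some could not move a count or spacing. The score floors lay below every Sqstm1 score, merging within 500 bp cannot join the 2 sites, and leaving out vehicle replicate 1 removes neither. Some limits were wide, such as the SD of 31.2 for the proximal MG132 percentiles, and a count of 3 in place of 2 passed. The 58 are thus no measure of stability. Ranking among the 764 sites shared with vehicle replicate 2, chosen after seeing the data, lowered the proximal percentiles in MG132 replicates 1 and 2 to 10.7 and 34.7 and the distal ones to 36.8 and 76.7, since these sites score high. In vehicle replicate 2, ranking on chromosome 11 alone gave 57.4 (proximal) and 85.1 (distal), and scores of at least 5 gave 56.1 (proximal). The distal site stays above the proximal one in each of these by construction, since the same scores are ranked again within a list. The doubled window added 1 summit, in MG132 replicate 2 (3 in all). There were 2 sites at match distances of 50 and 1000 bp and without each replicate, and the mean spacing of 1850 bp lay between 1844 and 1856 bp without one replicate. No paired analysis was possible because no result comes from a test. The numbers run across treatments, and the Sqstm1 values of number 2 are given side by side in vehicle and MG132; number 1 has no Sqstm1 summit in vehicle. Unknown depth limits every rank.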
